A study of Mus musculus with 12 samples.

Results

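Direct target genes of the transcription factor p53 were followed in mouse embryonic fibroblasts infected with an adenovirus carrying Cre recombinase or with an empty adenovirus. The 10 genes, Cdkn1a, Mdm2, Ccng1, Bax, Bbc3, Phlda3, Zmat3, Gdf15, Sesn1 and Trp53inp1, were chosen by name as well-known p53 targets, and all 10 were listed in both deposited tables, which hold 22114 and 21916 genes. All 10 also passed the filter on low counts in every comparison. The fibroblasts were taken from embryos at embryonic day 13.5 to 14.5 and harvested for RNA 4 days after infection at a multiplicity of 500, in pyruvate-free medium. The first pair of groups had the genotype LSL-Nrf2D29H in homozygous form. With empty virus these cells are functionally knockout for Nrf2 (titled Nrf2 KO), and with Cre virus they express the D29H missense form of Nrf2. The second pair had the genotype CA-Keap1R554Q, also homozygous. With empty virus those cells are functionally wild type for Keap1 (titled Keap1 WT), and with Cre virus they are homozygous for the R554Q missense form. Each of the 4 groups had 3 libraries, and each table holds the 6 libraries of 1 genotype. No group combined Cre virus with cells that lack an inducible allele, so Cre itself, recombination and the mutant protein cannot be told apart in either comparison. The labels do not say whether the 3 replicates of a group came from separate embryos, so the p-values measure the spread between these libraries, which may be technical.

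p53 is a transcription factor that is held at a low level by the ubiquitin ligase MDM2 and accumulates when DNA is damaged. It then switches on genes that stop the cell cycle, that start apoptosis and that rein in p53 itself. Cre recombinase cuts DNA at loxP sites and, at high levels, can also cut similar sequences elsewhere in a mammalian genome, and primary fibroblasts keep an intact p53 response unless they have been immortalised. The p53 target genes are therefore a usual place to look for a damage response in Cre experiments. KEAP1 is the adaptor that marks NRF2, the regulator of antioxidant genes, for degradation, and the D29H and R554Q changes lie in these interacting proteins.

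The libraries held 14963004 to 23818477 counted reads. Nfe2l2, the gene of NRF2, had 40.2 to 46.5 CPM (TMM-scaled read counts, which allow libraries of different depth to be compared) in the group labelled knockout and 49.6 to 57.1 CPM in D29H, so its transcript was present in the libraries labelled knockout, level with Keap1 WT (41.7 to 44.2 CPM), and a gene-level count does not tell a silenced from an active allele. Nqo1, an NRF2 target used here as a check of both alleles, had 7.65 to 10.8 CPM in the group labelled knockout and 108 to 134 CPM in D29H. It had 33.0 to 33.4 CPM in Keap1 WT and 306 to 378 CPM in R554Q, so in both tables the Cre libraries stood clear of the empty-virus libraries. The 9 fibroblast markers summed to 19414 to 25902 CPM in each library, while those of epithelium and endothelium stayed at or under 23.1 CPM. Summed levels did not overlap between R554Q and WT for 3 marker lists: 5 of 6 macrophage markers (59.3 to 70.4 against 84.0 to 94.5 CPM), 2 of 4 muscle markers (9.16 to 10.3 against 11.96 to 14.5 CPM) and 4 neural markers (60.8 to 67.8 against 51.0 to 58.0 CPM). These sums were mostly Lyz2 (mean 47.9 CPM in R554Q against 69.5 in WT), Des (9.68 against 13.3 CPM) and Tubb3 (58.7 against 49.4 CPM). Cd68 (4.99 against 4.38 CPM) and Csf1r (7.40 against 7.29 CPM) were not lower in R554Q. Of the macrophage markers 2 had log2 fold changes above zero there and 3 below. Between D29H and the group labelled knockout only the fibroblast sum did not overlap (21925 to 22510 against 23749 to 25902 CPM). No list was at 0 in all libraries. Mitochondrial genes took 0.982% to 1.77% of reads in D29H and 0.725% to 0.904% in the group labelled knockout. The part of these shifts in the results on p53 targets was not tested.

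All 10 genes were detected in each of the 12 libraries, over a wide range of levels. On the authors' FPKM scale, which corrects for gene length and so allows genes to be compared, the medians over the 12 libraries were 558 for Bax, 331 for Phlda3, 297 for Ccng1, 253 for Cdkn1a and 98.2 for Mdm2. Bbc3 (24.4 FPKM), Zmat3 (18.7 FPKM) and Trp53inp1 (15.1 FPKM) were in the middle, and Gdf15 (4.47 FPKM) and Sesn1 (2.45 FPKM) were lowest. Read counts were 76 to 228 for Gdf15, 100 to 241 for Sesn1 and at least 611 in every library for the other 8 genes, so counting error is largest for Gdf15 and Sesn1. Over all 12 libraries the highest CPM of a gene was 1.25 times (Zmat3) to 2.28 times (Gdf15) its lowest.

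**Figure D1:**
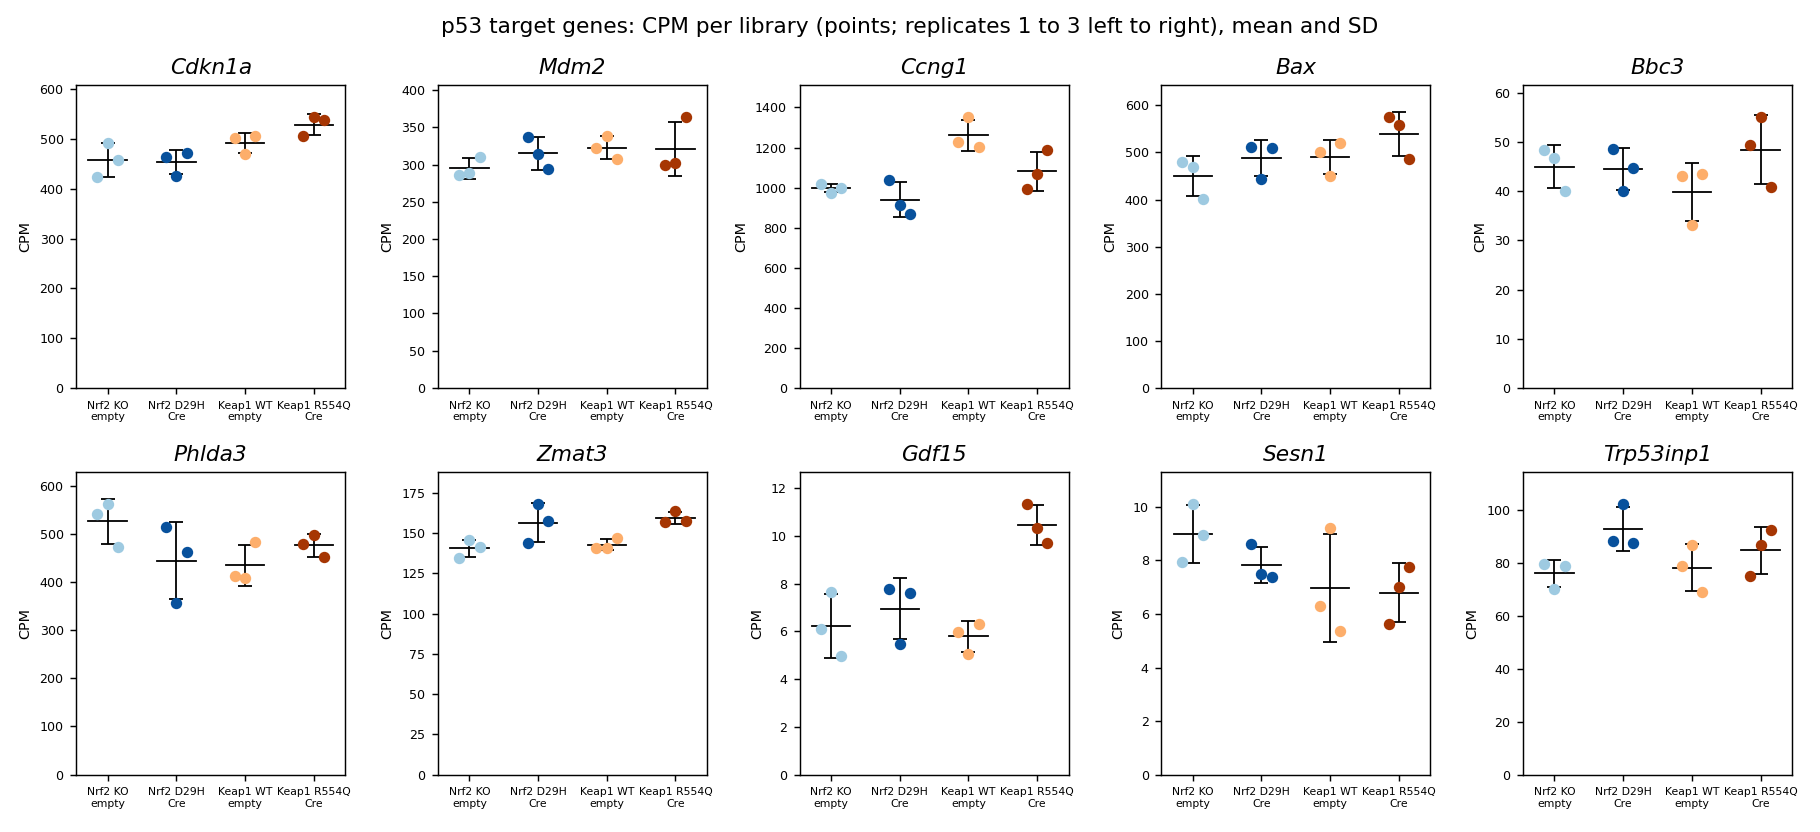
CPM (vertical axis, read counts after TMM scaling over 12 libraries) of each of the 10 p53 target genes in the 4 groups (horizontal axis); points are libraries, with replicates 1 to 3 from left to right, and bars are the mean and SD of 3 libraries. Gdf15 in R554Q, at 9.69 to 11.3 CPM, lies above all other libraries, whereas the Cdkn1a and Mdm2 points of the Cre and empty-virus groups overlap.

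Cdkn1a encodes p21, the inhibitor of cyclin-dependent kinases through which p53 stops the cell cycle. It was examined first, together with its promoter, because the letters of a p53 site lie close to its first start. Promoter sequences are from RefSeq on GRCm38.p6. Of the 10 genes 8 had an entry, with 13 windows of 300 bases in all (250 before and 50 after each start), and Zmat3 and Trp53inp1 were not matched. A p53 half-site, the 10-base unit that a p53 dimer recognises, was searched by its consensus (which reads alike on both strands). A full site was taken as 20 bases of adjacent half-sites with up to 2 mismatches, none in the central CWWG of either half-site (W is A or T). The 250 bases before the first start of Cdkn1a are printed with both matches in capitals, chr17:29090729-29090978, plus strand.
Cdkn1a: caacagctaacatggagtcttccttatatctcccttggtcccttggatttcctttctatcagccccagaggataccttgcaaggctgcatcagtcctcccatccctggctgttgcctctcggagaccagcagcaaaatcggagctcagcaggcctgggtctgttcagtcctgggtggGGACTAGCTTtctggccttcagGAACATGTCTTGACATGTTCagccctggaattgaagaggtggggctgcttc
The first capitals are a half-site that begins 73 bases before the start, and the second are a full site that begins 51 bases before it, with 1 mismatch, and whose first 10 bases also count as a half-site. The window of the second start of Cdkn1a held neither. A full site of this kind was found in 1 of the 13 windows of these genes and in 0.158% of all 32851 windows in the table. A half-site was found in 5 of the 13 windows, of 5 different genes, and in 8.36% of all windows. A match describes the letters in this window and not binding.

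Cdkn1a (ENSMUSG00000023067, chromosome 17, 29090979 to 29100722, plus strand, mm10) had 464, 426 and 472 CPM in D29H and 423, 492 and 458 CPM in the group labelled knockout. The groups overlapped fully, with the highest library among those given empty virus. The log2 fold change was -0.02 (SE 0.11, 95% interval -0.25 to 0.22), and the adjusted p was 0.953. Unless another tool is named, p-values here come from edgeR (quasi-likelihood) and are adjusted by Benjamini-Hochberg over all genes tested. Among the Keap1 libraries it had 505, 543 and 538 CPM in R554Q and 503, 469 and 505 CPM in WT. Replicates 2 and 3 of R554Q were above all WT libraries, and its lowest library was level with the highest of WT. The log2 fold change was 0.11 (SE 0.08, interval -0.06 to 0.28, adjusted p 0.424). Averaged over both tables, with 6 Cre libraries against 6, the fold change was 1.03 with a 95% interval of 0.943 to 1.13. In a bulk library, fewer responding cells and a smaller response per cell cannot be told apart.

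Mdm2 (ENSMUSG00000020184, chromosome 10, 117688888 to 117710758, minus strand) encodes the ligase that degrades p53, and p53 switches it on in a feedback loop. Mdm2 had 338, 314 and 294 CPM in D29H and 286, 288 and 311 CPM in the group labelled knockout. It had 299, 302 and 363 CPM in R554Q and 322, 339 and 308 CPM in WT. The Cre and empty-virus libraries overlapped in both tables, with R554Q replicate 3 the highest of all 12. Its log2 fold change was 0.09 (SE 0.11, interval -0.13 to 0.32) with D29H, at an adjusted p of 0.639, and 0.00 (SE 0.09, interval -0.19 to 0.19) with R554Q, at an adjusted p of 1. The average over both tables was a fold change of 1.03 (95% interval 0.938 to 1.13).

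Ccng1 (ENSMUSG00000020326, chromosome 11, 40748552 to 40755311, minus strand) encodes cyclin G1, which acts with a phosphatase on MDM2 and is among the most abundant p53 target transcripts in fibroblasts. It had 1039, 911 and 869 CPM in D29H and 1016, 975 and 1000.2 CPM in the group labelled knockout. It had 992, 1067 and 1185 CPM in R554Q and 1228, 1350.5 and 1204 CPM in WT. Between R554Q and WT libraries every Cre library was below every empty-virus library, while the Nrf2 libraries overlapped. The log2 fold change in the Keap1 comparison was -0.22 (SE 0.09, interval -0.41 to -0.02), with an adjusted p of 0.153. Without R554Q replicate 3 it was -0.28 with an adjusted p of 0.00986. Among the Nrf2 libraries it was -0.09 (SE 0.12, adjusted p 0.696).

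The half-sites of the other genes are given in capitals, each in 40 bases read on the gene's own strand, to place them beside the values.
Mdm2: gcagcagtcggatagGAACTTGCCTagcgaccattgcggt
Ccng1: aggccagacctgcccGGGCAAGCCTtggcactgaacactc
Bax: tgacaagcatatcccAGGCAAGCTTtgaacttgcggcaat
Sesn1: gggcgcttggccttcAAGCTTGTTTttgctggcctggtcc
The stretches lie at chr10:117710920-117710959 (minus), chr11:40755447-40755486 (minus), chr7:45467075-45467114 (minus) and chr10:41887251-41887290 (plus). Their half-sites begin 186, 185, 201 and 173 bases before the start of the window's transcript, which for Sesn1 is not the first start of the gene. No half-site was found in the windows of Bbc3, Phlda3 and Gdf15, which says only that these letters are not in those windows.

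Bax, Bbc3, Phlda3 and Trp53inp1 belong to the apoptotic arm. Bax (ENSMUSG00000003873, chromosome 7, 45461695 to 45466898, minus strand) encodes the protein that permeabilises the outer mitochondrial membrane. It had 512, 443 and 509.5 CPM in D29H, against 479.6, 469 and 401 CPM in the group labelled knockout. It had 575, 558 and 486 CPM in R554Q, against 501, 449 and 520.0 CPM in WT. D29H replicate 2 and R554Q replicate 3 fell inside the empty-virus range of their table. It gave a log2 fold change of 0.12 with D29H (adjusted p 0.578, SE 0.12) and 0.14 with R554Q (adjusted p 0.338, SE 0.09). Without R554Q replicate 3 the Keap1 value was 0.22 with an adjusted p of 0.0451, and under GC and length offsets it was -0.01.

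Bbc3 (ENSMUSG00000002083, chromosome 7, 16309616 to 16318205, plus strand) encodes PUMA, a BH3-only protein that blocks the survival members of the BCL-2 family. It had 48.7, 40.1 and 44.8 CPM in D29H and 48.4, 46.7 and 40.0 CPM in the group labelled knockout, which overlapped throughout. In R554Q it had 49.5, 55.0 and 40.9 CPM and in WT 43.0, 33.0 and 43.5 CPM. Of the R554Q libraries, replicates 1 and 2 were above all of WT and replicate 3 was not. The log2 fold change of 0.29 (SE 0.11, interval 0.05 to 0.53) had an adjusted p of 0.128. It passed the threshold without R554Q replicate 3 (0.40, adjusted p 0.00217) and without the filter on low counts (adjusted p 0.0472). In D29H against knockout it was -0.02 (SE 0.11, adjusted p 0.926).

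Phlda3 (ENSMUSG00000041801, chromosome 1, 135766119 to 135769136, plus strand) encodes a small lipid-binding protein that restrains AKT. It had 513, 356 and 462 CPM in D29H and 542, 562 and 473 CPM in the group labelled knockout. In R554Q it had 478, 498 and 451 CPM, and in WT 412, 408 and 484 CPM. The point estimates had opposite signs, with log2 fold changes of -0.25 (SE 0.13, adjusted p 0.249) for D29H and 0.14 (SE 0.09, adjusted p 0.353) for R554Q, neither past the threshold, and under GC and length offsets the second was -0.02. D29H replicate 2, at 356 CPM, was the lowest of all 12 libraries. The difference between the tables was -0.38 (SE 0.16) with an unadjusted p of 0.0304 and an adjusted p of 0.402.

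Trp53inp1 (ENSMUSG00000028211, chromosome 4, 11156431 to 11174379, plus strand) encodes a stress-induced protein that promotes p53-dependent cell death and autophagy. It had 88.2, 102 and 87.4 CPM in D29H and 79.3, 69.9 and 78.5 CPM in the group labelled knockout. Every D29H library was above every library of the group labelled knockout. Trp53inp1 had a log2 fold change of 0.28 (SE 0.10, interval 0.07 to 0.49), and the adjusted p of 0.099 missed the threshold. It passed without D29H replicate 1 (0.32, adjusted p 0.049) and under GC and length offsets (0.29, adjusted p 0.0475). In R554Q it had 74.9, 86.5 and 92.5 CPM and in WT 78.6, 86.6 and 69.0 CPM, which overlapped. The value there was 0.12 (SE 0.10, adjusted p 0.473), and the average over both tables was 0.20 (SE 0.07, adjusted p 0.0564).

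Zmat3, Sesn1 and Gdf15 stand for RNA regulation, the antioxidant and nutrient arm, and secreted stress signals. Zmat3 (ENSMUSG00000027663, chromosome 3, 32334796 to 32365678, minus strand) encodes a zinc-finger RNA-binding protein. It had 144, 168 and 158 CPM in D29H and 135, 145 and 141 CPM in the group labelled knockout. It had 157, 163 and 158 CPM in R554Q and 141, 141 and 147 CPM in WT. The Keap1 groups did not overlap, and in the Nrf2 comparison only D29H replicate 1 fell within the range of the empty-virus libraries. Zmat3 had a log2 fold change of 0.15 with D29H (adjusted p 0.376, SE 0.10) and 0.16 with R554Q (adjusted p 0.182, SE 0.07), and the fitted difference was -0.00 (interval -0.24 to 0.24). The average of both was 0.16 (SE 0.06, interval 0.04 to 0.28), with an adjusted p of 0.0667 in edgeR and 0.0288 in DESeq2.

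Sesn1 (ENSMUSG00000038332, chromosome 10, 41810574 to 41908424, plus strand) encodes sestrin 1, a stress protein that restrains mTORC1. It had 8.61, 7.50 and 7.37 CPM in D29H and 7.94, 10.1 and 8.96 CPM in the group labelled knockout. In R554Q it had 5.61, 7.03 and 7.76 CPM and in WT 6.30, 9.22 and 5.36 CPM. The groups overlapped in both tables, and the fitted change was -0.20 with D29H (adjusted p 0.401, SE 0.14) and -0.03 with R554Q (adjusted p 0.948, SE 0.19). At 100 to 182 reads a library in R554Q and WT, the Keap1 interval ran from -0.42 to 0.36.

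Gdf15 (ENSMUSG00000038508, chromosome 8, 70629393 to 70632456, minus strand) was the 1 gene of the 10 that rose. It encodes a secreted cytokine of the TGF-beta superfamily that is induced by p53, by the ATF4 branch of the stress response and by other stresses. It had 11.3, 10.3 and 9.69 CPM in R554Q, from 226, 228 and 196 reads, against 5.97, 5.07 and 6.32 CPM in WT, from 126, 100 and 118 reads. All 3 R554Q libraries were above the other 9 libraries of the study. The log2 fold change was 0.86 (SE 0.14, interval 0.57 to 1.15), a 1.81-fold rise with an adjusted p of 0.000958. For the Nrf2 genotype it had 7.79, 5.48 and 7.60 CPM in D29H and 6.09, 7.63 and 4.97 CPM in the group labelled knockout, which overlapped. Its value there was 0.14 (SE 0.17, interval -0.22 to 0.50, adjusted p 0.664). The difference between the tables was -0.71 (SE 0.23, interval -1.19 to -0.24), with an unadjusted p of 0.00517 and an adjusted p of 0.286, which did not pass the threshold. For the Keap1 genotype the rise passed the threshold in all 16 alternatives, with log2 fold changes of 0.72 to 0.92 and adjusted p-values of 7.45e-07 to 0.0195. The average over both tables, 0.50 (SE 0.11, adjusted p 0.00769), passed in all 21.

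Because Gdf15 was the gene that rose, the 250 bases before its start are shown, chr8:70632457-70632706, minus strand, in lower case throughout, since no p53 half-site was found there.
Gdf15: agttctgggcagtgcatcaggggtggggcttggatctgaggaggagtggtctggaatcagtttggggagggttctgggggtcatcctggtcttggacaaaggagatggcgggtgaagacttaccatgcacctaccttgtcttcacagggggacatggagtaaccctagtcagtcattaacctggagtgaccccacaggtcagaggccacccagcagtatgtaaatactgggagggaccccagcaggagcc
Neither of 2 other motifs was found on either strand of the Gdf15 windows. TGACNNNGC, the core of the antioxidant response element bound by NRF2, was present in 12.4% of all windows. TGATGNAA, the core of the element bound by ATF4 with C/EBP partners, was present in 3.97% of them. Among the windows of the 10 genes the first was found in 1 of 13, a downstream window of Cdkn1a, and the second in 0 of 13.

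Counted together, 0 of the 10 genes were called in the Nrf2 comparison, where 4.75% of 14370 genes were called. DESeq2 and limma also called 0, and 1 gene, Trp53inp1, had an unadjusted p under 0.05, against 22.9% of all genes. In the Keap1 comparison 1 of the 10 was called, Gdf15, where 6.17% of 14128 genes were called, and 4 had an unadjusted p under 0.05 against 24.2% of all genes. Those 4 were Gdf15, Bbc3 and Zmat3, with higher estimates, and Ccng1, with a lower one.  The median log2 fold change of the 10 genes was 0.04 with D29H and 0.13 with R554Q, against 0.00 and -0.00 over all genes, with 5 of the 10 above zero, against 50.1% of all genes, and 8 of the 10, against 49.9%. The Cre and empty-virus libraries did not overlap, on the CPM scale, for 1 gene in the Nrf2 comparison (Trp53inp1, higher, against 12.7% of all genes higher). They did not overlap for 2 higher genes (Gdf15 and Zmat3, against 13.3%) and 1 lower gene (Ccng1, against 14.2%) in the Keap1 comparison. Without R554Q replicate 3 the Keap1 calls were 3 higher genes (Bax, Bbc3 and Gdf15) and 1 lower (Ccng1), and the number of genes called over the whole table also grew, from 533 to 1530 higher and from 339 to 1342 lower. In the Nrf2 comparison Trp53inp1 was called without D29H replicate 1, where 1194 genes were called higher and 998 lower, against 498 and 184 with all libraries. No 95% interval in the Nrf2 comparison reached beyond 0.51 in either direction.

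**Figure D2:**
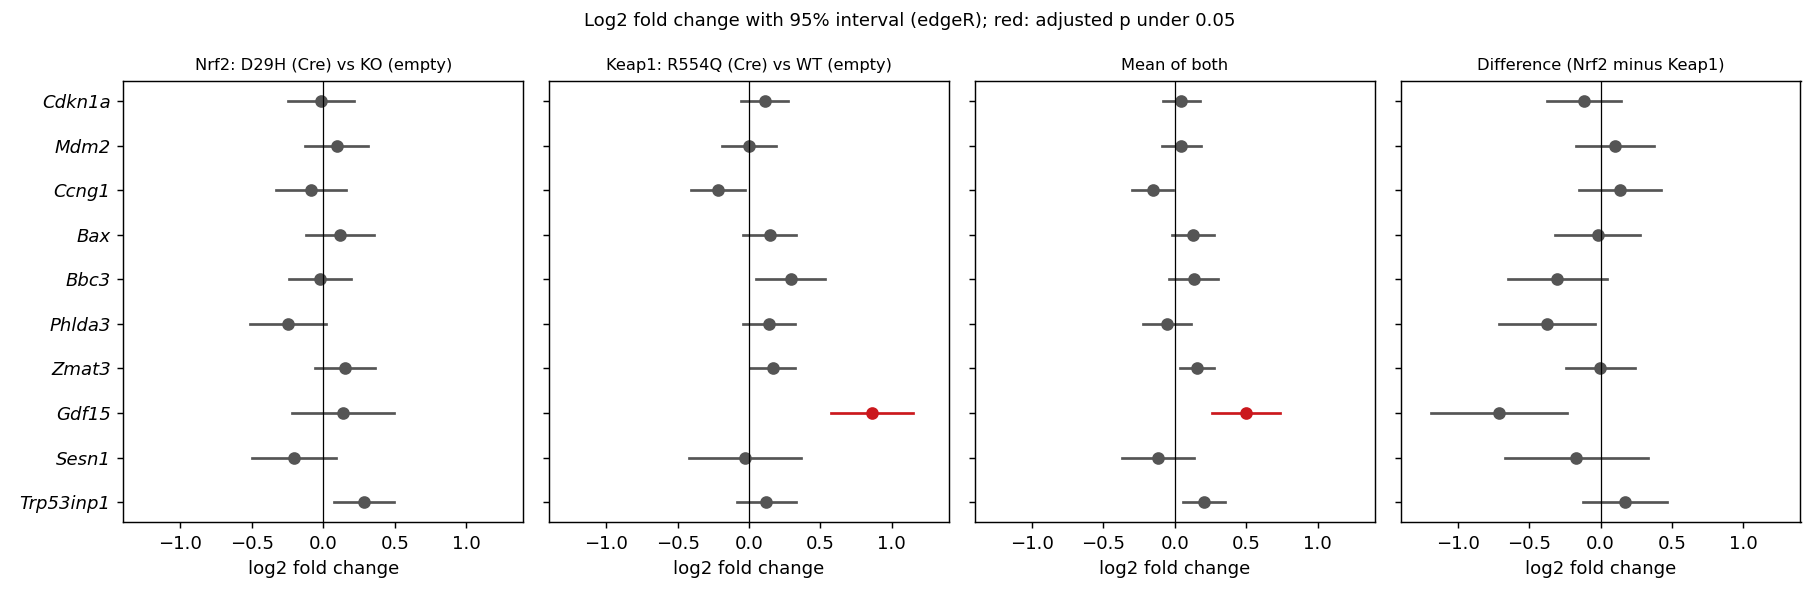
Log2 fold change (horizontal axis) with its 95% interval for each of the 10 genes (vertical axis) in the Nrf2 comparison, the Keap1 comparison, their mean and their difference; red marks an adjusted p under 0.05. Gdf15 is red in the Keap1 comparison (0.86) and in the mean (0.50), and all intervals of Cdkn1a and Mdm2 include zero.

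In the fit of all 12 libraries 1 of the 10 genes, Gdf15, was called in the mean of both Cre contrasts, where 15.8% of 14794 genes were called, with 4 of 10 at an unadjusted p under 0.05 against 31.5% of all genes. None was called lower, where 7.33% of genes were, and 7 of the 10 were above zero, with a median of 0.09, against 50.1% of all genes. Zmat3 and Trp53inp1 also passed in DESeq2 (0.16 and 0.20) and with a filter at a mean count of 50, and without D29H replicate 1, where Ccng1 was called lower (-0.20, adjusted p 0.0353). In those settings 8.9%, 11.5% and 11.5% of all genes were called higher. Trp53inp1 alone was added without R554Q replicate 1 (adjusted p 0.0401) or without WT replicate 2 (adjusted p 0.0465). For the difference between the contrasts 0 of the 10 were called in edgeR, DESeq2 and limma, where edgeR called 0.027% of all genes, 0.00676% higher and 0.0203% lower. Of the 10, Gdf15 and Phlda3 had an unadjusted p under 0.05, against 11.3% of all genes.

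The authors' deposited table gave the same calls at an adjusted p under 0.05, 0 of the 10 in the Nrf2 comparison and Gdf15 alone in the Keap1 comparison. Of all genes with an adjusted p in the authors' deposited table, 6.28% and 10.2% were past that threshold. In the authors' deposited table Gdf15 had a log2 fold change of 0.63 with an adjusted p of 7.04e-05, and Ccng1 in the Keap1 comparison had -0.20 with an adjusted p of 0.0761.

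No Cre library had all 10 genes above the mean of its genotype. Each library's log2 CPM was set against the mean of the 6 libraries of its genotype. D29H replicate 1 had 9 of the 10 genes above that mean, with a median deviation of 0.10, whereas D29H replicate 2 had 3 of 10 (median -0.09) and D29H replicate 3 had 6 of 10 (median 0.03). In R554Q the counts were 5, 8 and 7 of 10, with medians of 0.02, 0.11 and 0.07. In the group labelled knockout they were 4, 7 and 4, and in WT 2, 4 and 3. The largest deviations belonged to Gdf15 in the Keap1 comparison, from 0.54 in R554Q replicate 1 to -0.60 in WT replicate 2. D29H replicate 2, in which Phlda3 was lowest (-0.43) and Trp53inp1 highest (0.29), also had the highest share of mitochondrial reads, 1.77%, and the part of that in these values was not tested.

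**Figure D3:**
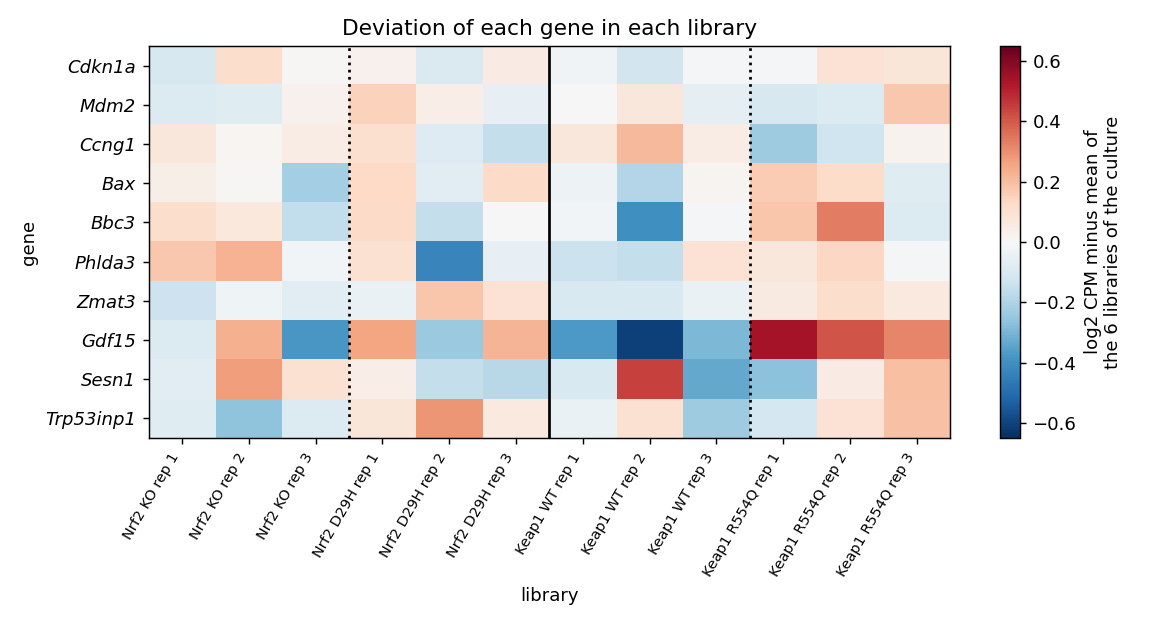
Heat map of each gene's log2 CPM in each library (columns) minus its mean over the 6 libraries of the same genotype (color scale); rows are the 10 genes, the solid line separates the tables and dotted lines separate empty virus from Cre. The Gdf15 row is red in all 3 R554Q libraries and blue in all 3 WT libraries, and no column is of 1 color throughout.

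Without Cre, the 10 genes were compared between the group labelled knockout and Keap1 WT, where genotype and culture cannot be told apart. Ccng1 was lower in the group labelled knockout (mean 997 ± 20.6 against 1261 ± 78.4 CPM, SD, n = 3 each), and the other 9 did not pass the test. Summed markers that did not overlap between these groups were those of macrophages (103 to 139 CPM in the group labelled knockout against 84.0 to 94.5 CPM), fibroblasts (23749 to 25902 against 20387 to 23211 CPM), epithelium (3.27 to 4.32 against 5.88 to 7.87 CPM) and neural cells (39.96 to 46.9 against 51.0 to 58.0 CPM). Within the fibroblast sum Col1a1 (mean 10308 against 7463 CPM) and Col1a2 (3718 against 2492 CPM) were higher in the group labelled knockout. Of the 9 fibroblast markers 5 had a log2 difference below zero, with a median of -0.04 over the list. The part of these marker shifts in the Ccng1 result was not tested. The log2 difference of Ccng1 was -0.34 (SE 0.10, adjusted p 0.0168), where 10.1% of genes were called lower and 19.7% in either direction. Of the 10 genes 3 had an unadjusted p under 0.05, against 31.4% of all genes, and 4 were above zero, against 48.6%. Ranges did not overlap for 1 lower gene, Ccng1, against 19.1% of genes, and for no higher gene, against 17.9%. Ccng1 missed the threshold without knockout replicate 2 (adjusted p 0.0724), WT replicate 1 (0.0509) or WT replicate 2 (0.115). Phlda3 was called higher in the group labelled knockout without knockout replicate 3 (0.34, adjusted p 0.0457), and also when D29H replicate 1 or 2, which enter only through the spread, was left out (adjusted p 0.0492 and 0.0428). Sesn1 was called higher there without WT replicate 2 (0.63, adjusted p 0.0142). In the order of the 4 group means, neighbouring groups overlapped in range for every gene with 2 exceptions. Ccng1 in WT stood above R554Q, the next group (1081 ± 97.6 CPM), and Gdf15 in R554Q (10.5 ± 0.823 CPM) stood above D29H (6.95 ± 1.28 CPM).

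Cdkn1a and Mdm2 were also among the steadier genes. Their SD of log2 CPM over the 12 libraries was 0.12 and 0.10, against a median of 0.18 over the 10594 genes that averaged at least 100 reads. Cdkn1a had 7002 to 11989 reads and Mdm2 4751 to 7375, and genes with fewer reads have more counting error. The part of depth in these SDs was not tested. The genes whose centred log2 CPM over the 12 libraries lay closest to Cdkn1a were Jmy, Aamp and Mmp14, at root mean square differences of 0.043, 0.044 and 0.047, where the median gene was at 0.20. Closest to Mdm2 were Kdm5a, Ankra2 and Sbno1, at 0.058, 0.069 and 0.070, where the median gene was at 0.19. These are descriptions of likeness over libraries of both genotypes, with no test.

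A wider list of 29 further p53 targets, of which 28 were listed and tested, held genes that rose. Among the Nrf2 libraries 3 were higher and 0 lower, with 3.47% of all genes called higher, and the list's median was 0.07 with 21 of 28 above zero. Among the Keap1 libraries 5 were higher and 0 lower, with 3.77% of all genes called higher, and the median was 0.11 with 17 of 28 above zero. Ptprv and Pidd1 were called in both. Ptprv, a receptor-type tyrosine phosphatase locus (chromosome 1, 135108497 to 135132594, minus strand), had 11.2, 19.8 and 19.9 CPM in D29H and 9.92, 8.01 and 5.56 CPM in the group labelled knockout. In R554Q it had 38.3, 34.6 and 31.3 CPM and in WT 23.9, 24.9 and 22.6 CPM. The Cre libraries were above all empty-virus libraries in both tables, by a log2 fold change of 1.10 (SE 0.19) with D29H, at an adjusted p of 0.0014, and of 0.55 (SE 0.10) with R554Q, at an adjusted p of 0.00272. Ptprv passed in all 16 alternatives in the Nrf2 comparison (0.93 to 1.32). Between R554Q and WT libraries it did not under GC and length offsets (0.34, adjusted p 0.05) or when all 12 libraries entered 1 fit (adjusted p 0.0595). Without Cre, Ptprv differed between the group labelled knockout and WT by a log2 value of -1.58 (SE 0.18).

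Pidd1 encodes the scaffold of the PIDDosome, which activates caspase-2. Pidd1 had 52.7, 72.2 and 66.1 CPM in D29H against 46.1, 46.4 and 38.7 CPM in the group labelled knockout, with no overlap. It had 58.4, 65 and 43.6 CPM in R554Q against 44.0, 32.7 and 37.1 CPM in WT, where R554Q replicate 3 fell inside the WT range. Its log2 fold change was 0.54 with D29H (adjusted p 0.00911, SE 0.11) and 0.56 with R554Q (adjusted p 0.0157, SE 0.13). Between D29H and knockout libraries Pidd1 missed the threshold without D29H replicate 2 (0.45, adjusted p 0.1) or 3 (0.52, adjusted p 0.0939). For the Keap1 genotype it missed it without R554Q replicate 1 (0.52, adjusted p 0.113) or 2 (0.43, adjusted p 0.0769), without WT replicate 2 (0.46, adjusted p 0.0917) or 3 (0.54, adjusted p 0.0806), and with the offsets (0.39, adjusted p 0.0618).

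For the Nrf2 genotype Rps27l, a ribosomal protein paralog that p53 induces, was at 0.57 (SE 0.17, adjusted p 0.0489), and its reads may be split with similar copies of the gene. Rps27l missed the threshold in 8 of 16 alternatives, among them those without D29H replicate 2 (0.47, adjusted p 0.278), D29H replicate 3 (0.59, adjusted p 0.206) or knockout replicate 3 (0.33, adjusted p 0.121). In the Keap1 comparison Abhd4 (0.49, SE 0.08, adjusted p 0.000846), Dcxr (0.31, adjusted p 0.0332) and Sulf2 (0.30, adjusted p 0.0428) were called. Abhd4, a lipid hydrolase, had 112, 103 and 112 CPM in R554Q and 77.6, 76.2 and 79.4 CPM in WT, and passed in all 16 alternatives. It had 79.4, 67.3 and 71.6 CPM in D29H and 61.9, 68.4 and 69.5 CPM in the group labelled knockout, which overlapped. Dcxr missed the threshold without R554Q replicate 1 or any 1 of the WT replicates (adjusted p 0.0678 to 0.174), and Sulf2 without R554Q replicate 1 or 2 or WT replicate 1 or 2 (adjusted p 0.0846 to 0.23). Dcxr and Sulf2 were each called in 9 of 16 alternatives. Sulf2 overlaps Ncoa3 on the other strand, whose reads came to 15.05% of its own. The number of calls in the Nrf2 comparison was 1, Ptprv, without D29H replicate 2 or 3, where 85 and 72 genes of the table were called higher. Among the Keap1 libraries it was 2 without R554Q replicate 1 or WT replicate 2, and 3 without R554Q replicate 2, WT replicate 1 or WT replicate 3. It was 8 higher with 3 lower without R554Q replicate 3, where 1530 genes of the table were called higher and 1342 lower, against 186 to 302 higher without any 1 of the other 5 libraries. Under GC and length offsets Abhd4 alone was called. In the mean of both contrasts 7 of 28 were higher, where 8.49% of genes were called higher: Ptprv (0.82), Pidd1 (0.55), Abhd4 (0.31), Plk3 (0.29), Psrc1 (0.28), Dcxr (0.21) and Sesn2 (0.21). In that fit 1 was lower, Pmaip1, the BH3-only gene NOXA (-0.20), where 7.33% of genes were called lower. Ptprv, Pidd1, Abhd4 and Psrc1 passed there in all 21 alternatives. Plk3 missed it without R554Q replicate 2 (adjusted p 0.0536), where 4 genes of the list were called. The Dcxr call was present without D29H replicate 2, knockout replicate 1 or R554Q replicate 3 and was lost without any 1 of the other 9 libraries, and Pmaip1 held without D29H replicate 1, knockout replicate 1 or R554Q replicate 3 only. Both also lost it with the replicate block (adjusted p 0.0618 and 0.0733) and under GC and length offsets (0.10 and -0.10, adjusted p 0.357 and 0.242). Sesn2 was lost with the replicate block, and without D29H replicate 2 or 3, knockout replicate 1, R554Q replicate 1 or 2 or WT replicate 2.

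Trp53, the p53 gene itself, had 137, 143 and 127 CPM in D29H and 136, 143 and 157 CPM in the group labelled knockout, a log2 fold change of -0.10 (adjusted p 0.57). In R554Q it had 143, 145 and 148 CPM and in WT 126, 124 and 133 CPM, at 0.20 (adjusted p 0.12). Of the 12 regulators 1 was called higher and 0 lower in each table, where 3.47% (Nrf2) and 3.77% (Keap1) of all genes were called higher. Mdm4, the partner of MDM2 that blocks p53 activity, was higher in the Nrf2 comparison, with 66.8, 107 and 86.0 CPM in D29H and 65.1, 60.1 and 61.4 CPM in the group labelled knockout. The value of 0.48 (SE 0.12, adjusted p 0.0285) missed the threshold without D29H replicate 2 (0.30, adjusted p 0.26), D29H replicate 3 (0.49, adjusted p 0.144) or knockout replicate 2 (0.44, adjusted p 0.0864). Cdkn2a, whose products include ARF, which frees p53 from MDM2, was higher in the Keap1 comparison, on a gene-level count that does not tell its products apart. It had 193, 215 and 178 CPM in R554Q and 145, 126 and 163 CPM in WT. The value of 0.44 (SE 0.10, adjusted p 0.0121) missed the threshold without R554Q replicate 1 (0.45, adjusted p 0.0711) or WT replicate 2 (0.35, adjusted p 0.0936). In the mean of both contrasts Mdm4 (0.27, adjusted p 0.0298) and Trp53bp1 (0.23, adjusted p 0.0257) were called higher, where 8.49% of all genes were. Both missed the threshold with the replicate block (adjusted p 0.0645 and 0.0655). Trp53bp1 also missed it without D29H replicate 2 or 3, knockout replicate 2, R554Q replicate 1 or WT replicate 3 (adjusted p 0.0629 to 0.0775), and under GC and length offsets (0.14, adjusted p 0.0824). Mdm4 also missed it there without any 1 of D29H replicates 2 and 3, knockout replicate 2, R554Q replicate 2 and WT replicates 2 and 3 (adjusted p 0.0636 to 0.0947). Trp53bp1 overlaps Tubgcp4, whose reads came to 66.2% of its own. Of 12 other BCL-2 family genes 10 were tested, and edgeR, DESeq2 and limma each called 0 in either table, with 0 at an unadjusted p under 0.05 in edgeR, against 22.9% (Nrf2) and 24.2% (Keap1) of all genes.

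Cell-cycle genes, which p53 lowers indirectly through p21, were read beside Cdkn1a. In the Nrf2 comparison 6 of 20 were lower and 0 higher, where 1.28% of genes were called lower, and 19 of 20 were below zero, with a median of -0.31. The 6 were the replication genes Mcm2 (-0.45), Mcm3 (-0.46) and Mcm5 (-0.37), the G1 cyclin Ccne1 (-0.49), the mitotic kinase Aurka (-0.38) and the topoisomerase Top2a (-0.46). Ccne1 had 51.8, 45.8 and 46.9 CPM in D29H and 64.8, 63.6 and 74.0 CPM in the group labelled knockout, with no overlap. The count was 12 without D29H replicate 1, 0 without D29H replicate 2 or 3, 3 without knockout replicate 2 and 4 without knockout replicate 3. The number of genes called lower over the whole table moved with it, from 184 to 998, 9, 10, 75 and 120 in that order. Between R554Q and WT libraries Cdk1 alone was lower (-0.34, adjusted p 0.0201), where 2.4% of genes were called lower, and the median was -0.10. Cdk1 had 88.5, 79.7 and 89.4 CPM in R554Q and 107, 114 and 106 CPM in WT. The Keap1 count was 4 without R554Q replicate 3, where 1342 genes of the table were called lower against 339 with all libraries, and 0 without any of the other 5 libraries in turn, where 48 to 137 genes were. In the mean of both contrasts 12 of the 20 were lower and 18 below zero (median -0.20), where 7.33% of genes were called lower. That count was 4 without D29H replicate 2 or 3, R554Q replicate 2 or WT replicate 2, and 5 without WT replicate 3 or with the replicate block. It was 6 without R554Q replicate 1 and 7 without knockout replicate 2 or 3 or WT replicate 1. In each of these settings fewer genes were called lower over the whole table than the 1085 with all libraries. Between the tables the difference was called for 0 of the 20 in edgeR, DESeq2 and limma, where edgeR called 0.027% of all genes, with 8 of 20 at an unadjusted p under 0.05 in edgeR against 11.3% of all genes. Without Cre, 19 of the 20 were higher in the group labelled knockout than in Keap1 WT (median 0.68), where 9.58% of genes were called higher.

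Gdf15 is also a target of ATF4, so 10 ATF4-pathway genes were read beside it. For the Keap1 genotype 5 of 10 were lower and 0 higher, where 2.4% of genes were called lower, and all 10 had Cre libraries below every empty-virus library, where 14.2% of genes did. Called lower were Atf3 (-0.66), Psat1 (-0.45), Asns (-0.41), Ddit3 (-0.34) and Atf4 itself (-0.31). Atf4 had 227, 204 and 211 CPM in R554Q and 266, 261 and 275 CPM in WT. Ddit3 overlaps Mars, whose reads came to 256% of its own, and under GC and length offsets it was at -0.17 (adjusted p 0.198), so its value is uncertain. The count was 0 without R554Q replicate 1, 2 without R554Q replicate 2 or WT replicate 3, 3 without WT replicate 1 and 1 without WT replicate 2, where 48 to 137 genes of the table were called lower. Among the Nrf2 libraries edgeR called 0 of 10, where 1.28% of genes were called lower, with 5 at an unadjusted p under 0.05 against 22.9% of all genes. DESeq2 called 2 and limma 1, where they called 2.12% and 1.22% of all genes lower, and the median in edgeR was -0.23. With edgeR 5 were called lower without D29H replicate 1, where 6.83% of all genes were, and 2 without knockout replicate 3, where 0.819% were. In the mean of both contrasts, in which Gdf15 was higher, 7 of the 10 were lower and 10 of 10 below zero (median -0.24), where 7.33% of genes were called lower. That count was 4 without D29H replicate 3, knockout replicate 2, R554Q replicate 2 or WT replicate 3, where fewer than 1085 genes were again called lower. The 7 NRF2 targets were all higher in both tables, with medians of 1.39 and 1.60, against 0.04 and 0.13 for the 10 p53 targets.

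**Figure D4:**
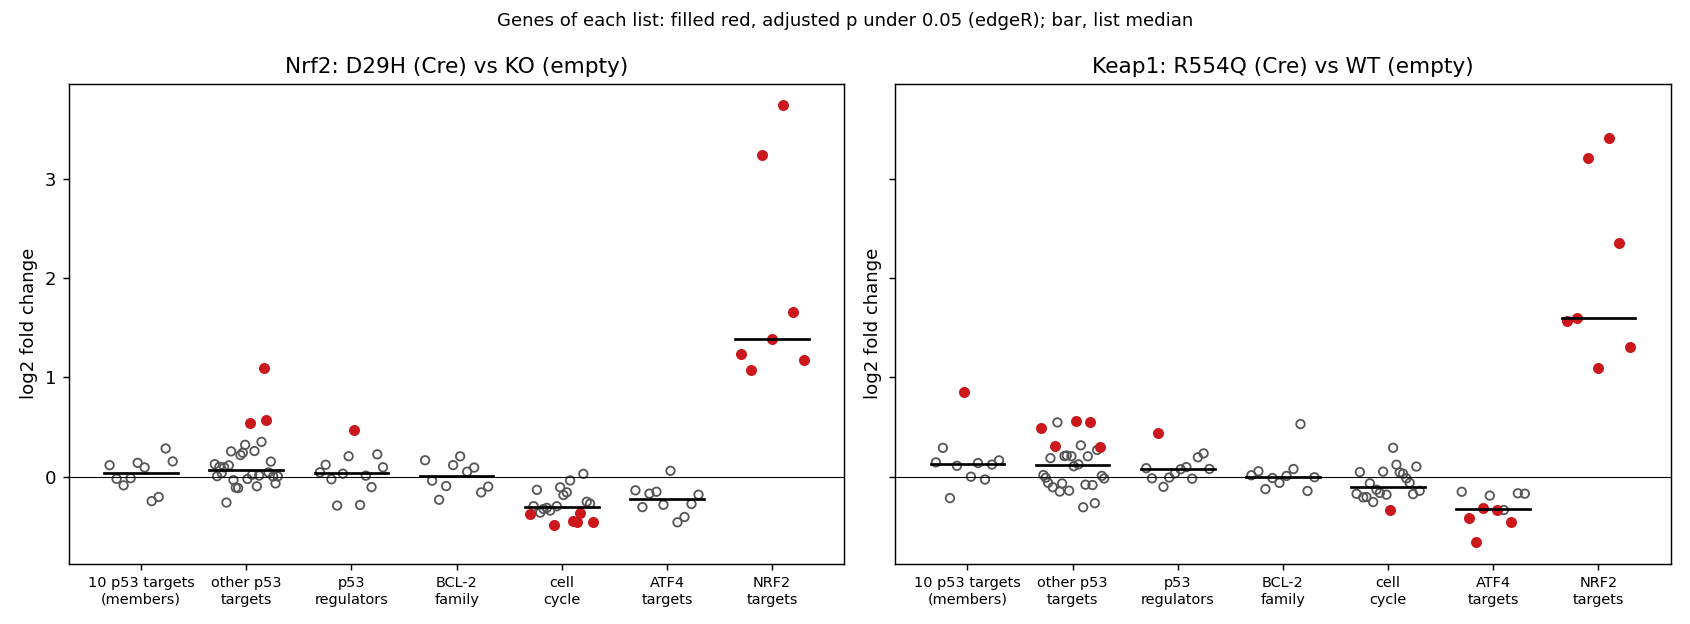
Log2 fold change (vertical axis) of Cre against empty virus for the genes of 7 lists (horizontal axis) in the Nrf2 comparison (left) and the Keap1 comparison (right); each circle is a gene, filled red where the adjusted p is under 0.05, and bars are list medians. The medians of the 7 NRF2 targets are 1.39 and 1.60, with the lowest of them (1.08) level with Ptprv of the wider p53 list (1.10) on the left, whereas the 10 p53 targets center on 0.04 and 0.13.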

How the data were processed

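Libraries were prepared with NEBNext Ultra reagents after RNeasy Plus purification, per the labels' protocols. The submitters' processing notes name STAR, DESeq2 and mm10, without roles or versions; the counting tool, the annotation release and the use of strand are not given in the sources used here. The authors gave unnormalised gene counts for each library, per the file headers. They also deposited FPKM, which matched count, listed length and column total to within 4.99e-10%, a normalised signal averaged within each group, and a log2 fold change with raw and adjusted p-values for each gene. FPKM were used to rank levels, the authors' statistics were copied for the members, and the authors' group means entered no result. Genes without a read in a table are missing from it (the smallest total is 1).

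The test was that of edgeR 4.0.16 under R 4.3.3: filterByExpr, TMM scaling and the quasi-likelihood test, with Benjamini-Hochberg adjustment over all genes tested and a call at an adjusted p under 0.05. Each table was fitted on its own 6 libraries; the difference, the mean and the comparison of the empty-virus groups were fitted on 12 libraries and 14794 genes of the 20844 in both tables. SEs were obtained from the log2 fold change and the F statistic. CPM are scaled over the 12 libraries. Counts of any 2 replicates differed beyond sampling noise (chi-square per degree of freedom 4.95 to 25.1), so no library is held in duplicate. Coordinates are those of the tables. The script was tested on simulated data.

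The 10 genes and the other lists were chosen with earlier results of these data known. Named by rule were the 10 genes, up to 5 genes of each other list called in each direction in a comparison, Trp53, Mdm4 and Nqo1, and the 3 nearest genes to Cdkn1a and to Mdm2; the other genes of these lists and Nfe2l2 were named after their values were seen. Alternatives tried were scaling by RLE or upper quartiles, no filter or one at a mean of 50 counts, limma 3.58.1 with trend, DESeq2 1.42.0, a replicate block, a joint fit of the 12 libraries, an adjusted p under 0.1 and leaving out each library in turn. Offsets for GC content and gene length (lowess, span 0.3, GC known for 99.5% of genes) were added after the data were seen.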

Additional observations from a re-analysis of the deposited data

How the results depend on the processing

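Of the 10 genes, Gdf15 kept its call in the Keap1 comparison and in the mean in every alternative run. In the Nrf2 comparison none of the 10 was called with RLE or upper-quartile scaling, either filter, DESeq2, limma, the block or the 12-library fit. There 1 gene, Trp53inp1, was called at an adjusted p under 0.1 (6.34% of all genes called higher) and 1 under GC and length offsets (2.58%). In the Keap1 comparison 2 were called higher without the low-count filter (3.76%). In the mean 2 were called with upper-quartile scaling (9.03% of all genes higher), 3 at a mean count of 50 (11.5%), 3 in DESeq2 (8.9%), 3 at an adjusted p under 0.1 (12.4%) and 2 with the offsets (6.5%), and between the empty-virus groups 1 was called higher at 0.1 (12.5%). Leaving out each library gave 0 to 1 called higher in the Nrf2 comparison, 1 to 3 higher and 0 to 1 lower in the Keap1 comparison, 1 to 3 higher and 0 to 1 lower in the mean, 0 for the difference, and 0 to 1 in each direction between the empty-virus groups. The cause of these shifts was not tested.

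Values near zero changed sign. In the Nrf2 comparison these were Cdkn1a (0.00689 with upper-quartile scaling, 0.00426 at a mean count of 50) and Bax (-0.0106 with the offsets). In the Keap1 comparison they were Mdm2 (-0.00225 with upper-quartile scaling, -0.00728 without the filter, -0.00448 in limma, -0.00465 with the block, -0.00586 in the 12-library fit), Bax (-0.0111) and Phlda3 (-0.0162), both with the offsets. For the difference they were Zmat3 (0.0107 with upper-quartile scaling, 0.00328 at a mean count of 50) and Bax (0.00727 with the offsets), for the mean Bax (-0.0262 with the offsets), and between the empty-virus groups Zmat3 (0.00784 with the offsets). Leaving out single libraries gave ranges across zero for Cdkn1a (-0.071 to 0.036) and Bbc3 (-0.093 to 0.056) in the Nrf2 comparison, Mdm2 (-0.092 to 0.048) and Sesn1 (-0.18 to 0.23) in the Keap1 comparison, and Mdm2 (-0.00052 to 0.074), Phlda3 (-0.12 to 0.018) and Sesn1 (-0.19 to 0.013) in the mean. For the difference they were Bax (-0.10 to 0.039) and Zmat3 (-0.062 to 0.028), and between the empty-virus groups Gdf15 (-0.052 to 0.25), Trp53inp1 (-0.11 to 0.049) and Zmat3 (-0.051 to 0.00598).

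Counts over all genes moved more. In the Nrf2 comparison, genes called lower numbered 456 without the filter and 304 in DESeq2, and at an adjusted p under 0.1 there were 911 higher and 558 lower. In the Keap1 comparison, genes called higher and lower numbered 825 and 677 without the filter, 1014 and 797 at 0.1, and 304 and 206 with the offsets. For the difference they were 17 and 15 without the filter, 26 and 27 in DESeq2, 8 and 10 at 0.1, 0 and 1 with upper-quartile scaling, at a mean count of 50 and in limma, and 0 higher with RLE or the offsets. In the mean 1742 were lower at 0.1. Leaving out each library gave 72 to 1194 higher and 9 to 998 lower in the Nrf2 comparison, 186 to 1530 and 48 to 1342 in the Keap1 comparison, 0 to 11 and 0 to 15 for the difference, 695 to 1730 and 367 to 1798 in the mean, and 1034 to 1661 and 984 to 1513 between the empty-virus groups.

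The replicate numbers of the titles gave no sign of pairs. The deviations of same-numbered libraries correlated at -0.10, -0.071 and -0.028 in the Nrf2 comparison and 0.040, -0.21 and -0.044 in the Keap1 comparison. In the submitters' sample labels the knockout libraries carry other numbers than in the titles. By those numbers D29H replicate 2 meets knockout replicate 1 (correlation 0.10) and D29H replicate 3 meets knockout replicate 2 (0.021). A block on the label numbers was not tried. With the replicate number as a block 327 and 157 genes were higher and lower in the Keap1 comparison, 812 and 588 in the mean, and 0 and 0 for the difference, and no call among the 10 genes changed; of the other lists Dcxr, Sulf2, Cdk1, Ddit3 and Atf4 lost theirs in the Keap1 comparison. In the mean the block left 5 of 7 higher and 0 of 1 lower calls among the wider p53 targets, 0 of 2 among the regulators, 5 of 12 among the cell-cycle genes and 5 of 7 among the ATF4 genes.

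Depth limits Gdf15 and Sesn1 most, at 76 to 241 reads a library, and 3 libraries a group limit every interval.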
